A study of Mus musculus with 6 samples.

Results

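The Paneth cell product genes Lyz1, Lyz2, Mmp7, Ang4, Itln1, Pla2g2a, Mptx1 and Mptx2 were examined in ATAC-seq peak lists of mouse intestinal crypts. In this assay Tn5 transposase cuts accessible DNA, and peaks are the places where its fragments pile up above the background. The 8 genes were taken by name, beside 21938 protein-coding genes in all, and a peak belonged to a gene when its summit, the position of highest coverage, lay in the gene body or within 10 kb of it. This gave 41 peaks of 302463 over all 6 lists. The lists came from 3 wild-type (WT) samples and 3 Arid3a cKO samples. In the cKO mice a tamoxifen-inducible Cre driven by Villin, and so limited to the intestinal epithelium, acted on Arid3a fl/fl alleles. WT animals received tamoxifen as well, on 3 consecutive days, and crypts were taken at 1 month after the first dose. Whether a sample came from 1 animal, and whether WT animals carried Cre, was not given in the sources used here, nor was the age. The study asked how loss of this AT-rich DNA-binding transcription factor altered chromatin accessibility.

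Paneth cells sit at the crypt base between the stem cells and fill large granules with antimicrobial proteins. Lyz1 encodes the lysozyme by which the cells are stained, and its neighbour Lyz2 encodes the lysozyme of macrophages. Mmp7 is the protease that activates alpha-defensins, Ang4 is an antimicrobial ribonuclease, Itln1 is a lectin that binds microbial sugars, and Pla2g2a is a secreted phospholipase. Mptx1 and Mptx2 encode mucosal pentraxins. Paneth cells are a small part of a crypt, and in a bulk sample fewer open cells and less open chromatin per cell cannot be told apart.

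The tissue label was checked on marker promoters. By summit, 2 of 5 epithelial, 2 of 4 crypt stem cell, 1 of 4 enterocyte, 1 of 4 goblet, 1 of 8 myeloid, 0 of 4 lymphoid and 2 of 5 stromal markers were called in all 6 lists. With any base of a peak in the promoter counted, the counts were 5 of 5, 4 of 4, 2 of 4, 1 of 4, 2 of 8, 0 of 4 and 2 of 5 in the same order. The stromal markers called were Col1a1 and Pdgfra, named after their values were seen, so the check by summit did not set epithelial above stromal markers, and the part of other cells in the results was not tested. The lists held 40492 to 58297 peaks, the shortest being WT 1, and coverage worked out from fold and p together was 1.75 to 2.29 fragments per base, with 2.11 in WT 1.

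Sequences upstream of the transcription start site (TSS) are shown for the lysozyme pair and for Itln1 and Mmp7, since the calls at these genes differed. The letters are the 250 bases before the RefSeq start (GRCm38.p6), 5′ to 3′ on the strand of the gene. Capitals mark matches to the letters searched, which are given with the promoter sequences at the end of the results.
Lyz1, chr10:117292869-117293118, minus strand: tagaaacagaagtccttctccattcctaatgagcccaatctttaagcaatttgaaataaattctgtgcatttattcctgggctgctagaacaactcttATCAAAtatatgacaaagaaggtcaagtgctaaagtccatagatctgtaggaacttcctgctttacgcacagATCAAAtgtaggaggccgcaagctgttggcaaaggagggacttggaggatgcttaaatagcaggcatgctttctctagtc
Lyz2, chr10:117282273-117282522, minus strand: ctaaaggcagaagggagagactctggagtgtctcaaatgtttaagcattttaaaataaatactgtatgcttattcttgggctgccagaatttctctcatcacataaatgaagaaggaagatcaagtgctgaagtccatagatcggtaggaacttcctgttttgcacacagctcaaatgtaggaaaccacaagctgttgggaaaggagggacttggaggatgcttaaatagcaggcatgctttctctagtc
Itln1, chr1:171535295-171535544, minus strand: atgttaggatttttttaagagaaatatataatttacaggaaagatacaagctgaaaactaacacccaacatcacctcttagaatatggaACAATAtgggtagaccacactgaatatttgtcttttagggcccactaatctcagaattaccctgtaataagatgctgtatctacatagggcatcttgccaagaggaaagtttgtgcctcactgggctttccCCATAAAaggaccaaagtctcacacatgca
Mmp7, chr9:7691840-7692089, plus strand: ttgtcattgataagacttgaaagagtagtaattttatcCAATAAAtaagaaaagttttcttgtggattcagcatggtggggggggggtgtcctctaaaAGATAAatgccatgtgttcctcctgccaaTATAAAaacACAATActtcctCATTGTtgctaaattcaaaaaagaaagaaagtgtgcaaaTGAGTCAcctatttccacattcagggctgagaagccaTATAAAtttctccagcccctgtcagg

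Promoter calls were compared first, to ask whether these genes were open in crypts and whether the genotypes differed. A promoter peak had its summit between 1000 bp upstream and 100 bp downstream of an annotated TSS. Only Lyz1 and Itln1 had one in any list, and each was called in 5 of 6 lists. Of the 8 genes, 0 were called in all 6 lists, against 44.6% of protein-coding genes, and 6 of 8 were called in no list, against 38.3%. Lyz1 lacked the call in 1 WT sample and Itln1 lacked it in 1 cKO sample (Fisher's exact test, two-sided, p = 1 for each). With 3 samples against 3 the smallest p is 0.1. A promoter called in exactly 5 lists was found at 5.34% of protein-coding genes, of which 36.1% lacked the call in WT 1, as Lyz1 did, and 17.2% in cKO 3, as Itln1 did. A switch from 3 of 3 samples in 1 genotype to 0 of 3 in the other occurred at 0 of 8 product genes and at 0.264% of protein-coding genes.

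**Figure D1:**
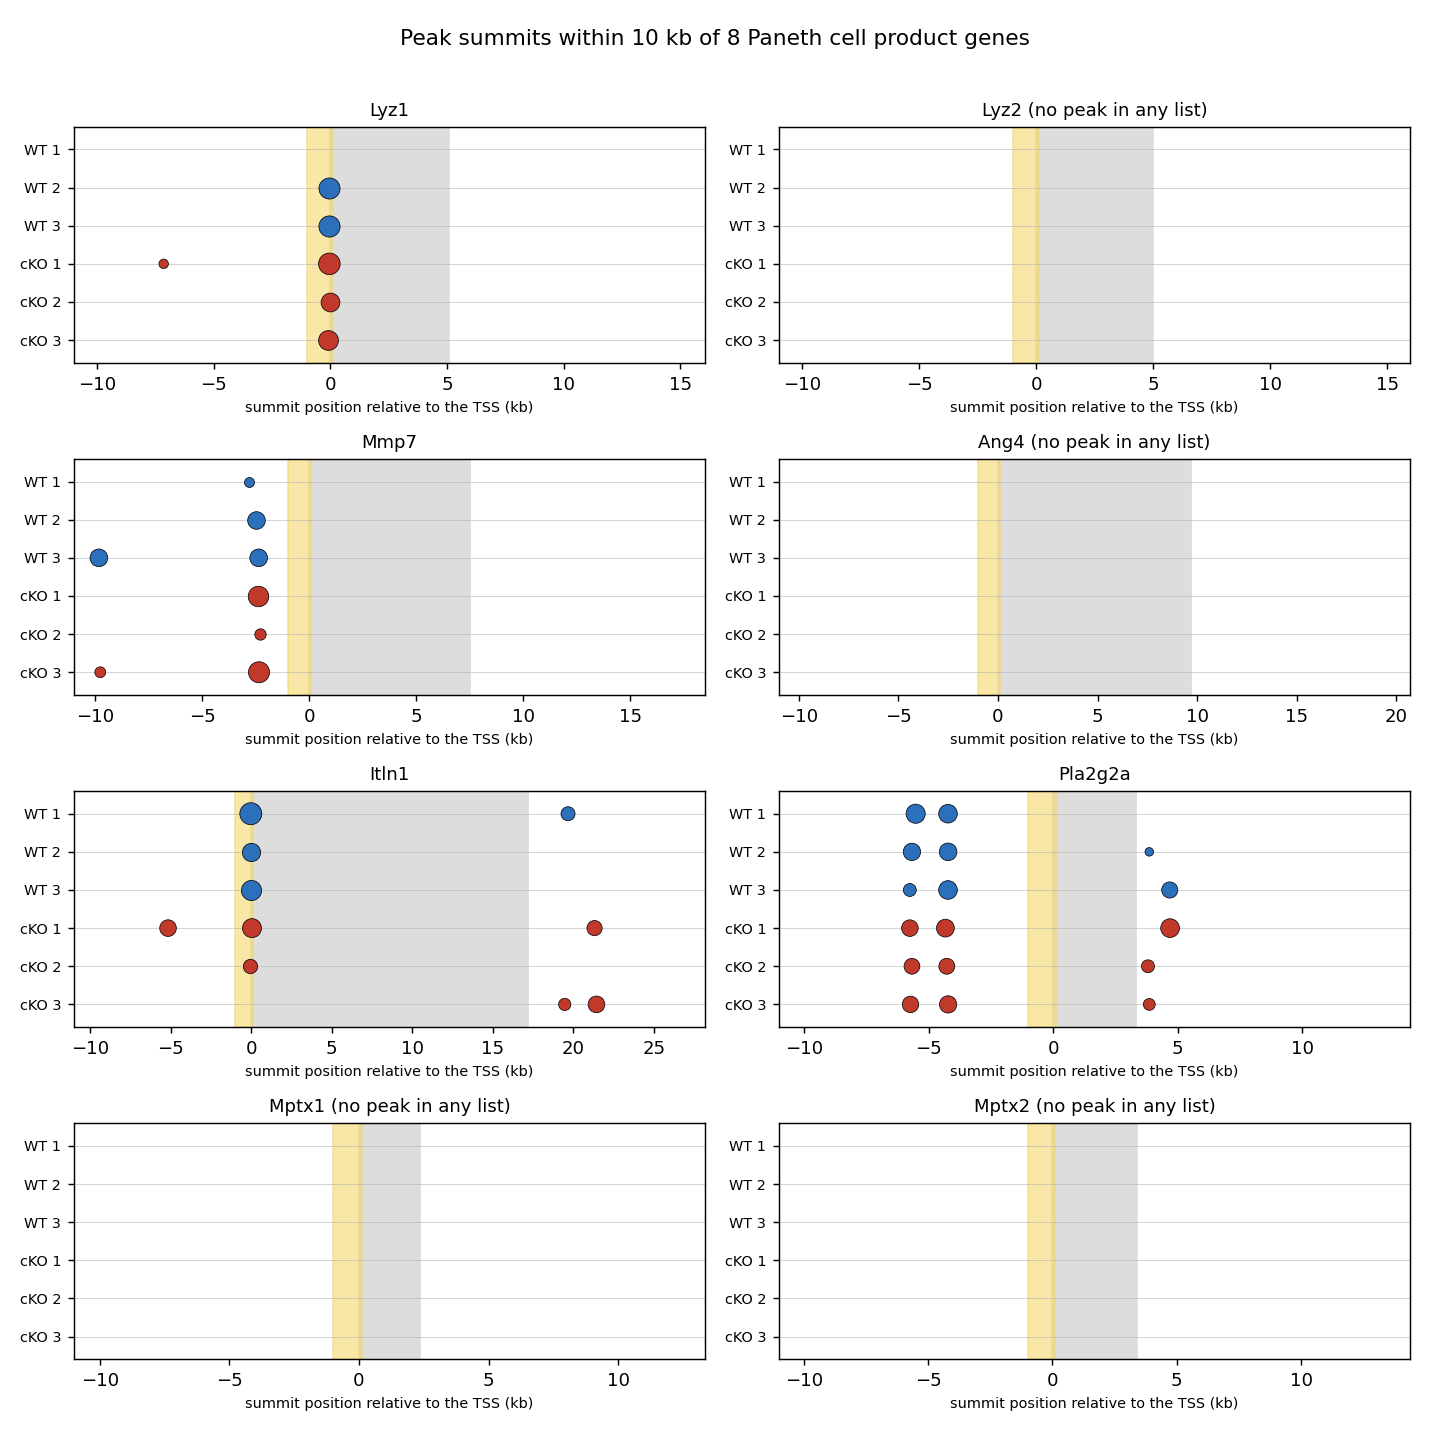
Positions of peak summits around 8 Paneth cell product genes, 1 row per list (WT blue, cKO red), with distance from the TSS in kb on the x axis. Grey marks the gene body, yellow the promoter window from 1000 bp upstream to 100 bp downstream, and larger points have a higher percentile of fold enrichment in their list. Points stand in the promoter window at Lyz1 and Itln1 only, and Lyz2, Ang4, Mptx1 and Mptx2 have none.

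Lyz1 (ENSMUSG00000069515.6) lies at chr10:117287797-117292868 on the minus strand, and its promoter peak at chr10:117292498-117293097 reached from the upstream flank into the gene. The summits lay 74 and 75 bp upstream of the TSS in WT 2 and WT 3 and 44, 37 and 118 bp upstream in cKO 1, cKO 2 and cKO 3. No peak was called in WT 1. Fold enrichment is the ratio of coverage at the summit to the local background, with 1 added to each. It stood at 7.36 for WT 2 and 7.30 for WT 3, with 7.63, 5.63 and 6.18 in the cKO lists. Fold is relative to each library's own background, so it was compared as a rank within its list. The percentile was 60.6 in WT 2, 61.4 in WT 3, 63.9 in cKO 1, 46.7 in cKO 2 and 52.5 in cKO 3. The called values of the genotypes overlapped, since cKO 1 stood above both WT lists and the other cKO lists below them. All 5 were below the median promoter peak, which stood at a percentile of 81.9 to 85.6 in the 6 lists.

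The coverage behind these values was low. The number of fragments at the summit follows from fold and p together. At Lyz1 it was 20 in WT 2 (95% Poisson interval 12.2 to 30.9) and 22 in WT 3 (13.8 to 33.3). In the cKO lists it was 26 (17.0 to 38.1), 18 (10.7 to 28.4) and 21 (13 to 32.1). Divided by the coverage of the list, the pileup was 10.99 and 10.95 times in WT 2 and WT 3 and 11.4, 10.3 and 9.63 times in cKO 1, 2 and 3. These 5 values lay within each other's counting intervals. The lowest pileup of any called peak was 8 or 9 fragments, so a weak peak could go uncalled, and a missing call does not show closed chromatin. In cKO 1 a further weak peak lay 7.15 kb upstream, with 9 fragments and a percentile of 6.24.

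**Figure D2:**
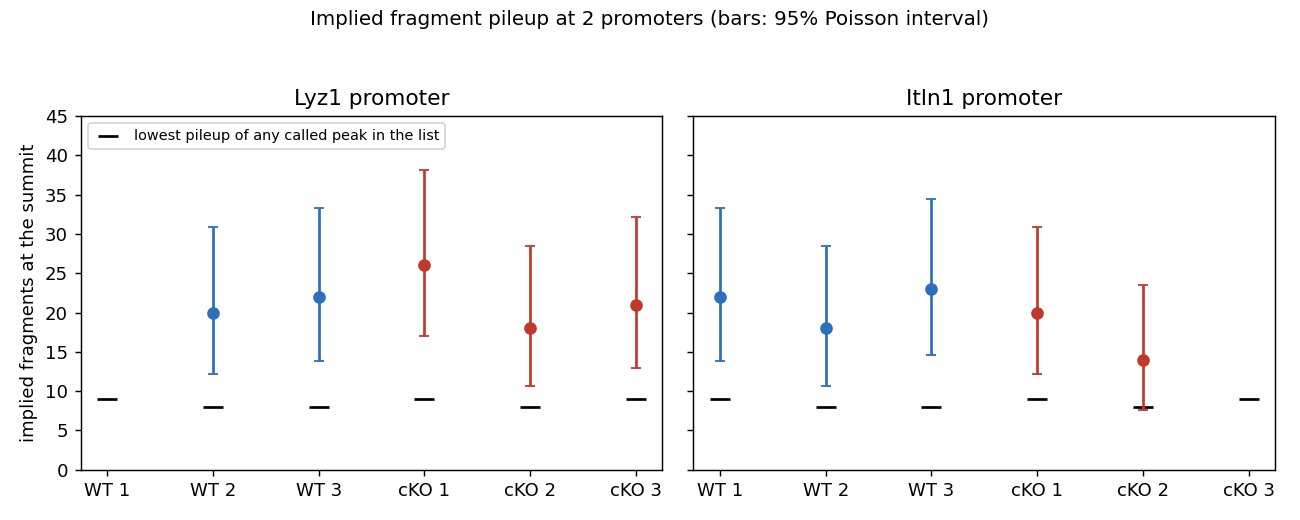
Implied number of fragments at the summit (y axis) at the Lyz1 and Itln1 promoters in each list (x axis), with 95% Poisson intervals that cover counting error only. Black dashes give the lowest pileup of any called peak in that list, and a list without a point had no call. Called values ran from 18 to 26 fragments at Lyz1 and from 14 to 23 at Itln1.

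Lyz2 (ENSMUSG00000069516.8, chr10:117277331-117282321, minus strand), the macrophage lysozyme next to Lyz1, had no peak in any of the 6 lists. The nearest summit lay 10.6 to 52.9 kb from its gene body, and in the lists with a Lyz1 call it was the Lyz1 promoter itself, just outside the 10 kb limit. The 300 bases around the starts of Lyz1 and Lyz2 were 82.5% identical in a global alignment. In the promoter windows, 86.0% of the 50-base sequences of Lyz1 and 88.6% of those of Lyz2 occurred once in the genome. How reads that match both copies were treated was not given in the sources used here.

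Itln1 (ENSMUSG00000038209.12, chr1:171518122-171535294, minus strand) had its promoter peak at chr1:171535094-171535764. Every 50-base sequence in that region was unique. The summits lay 22, 9 and 26 bp upstream of the TSS in WT 1, WT 2 and WT 3, 51 bp downstream in cKO 1 and 93 bp upstream in cKO 2. Fold enrichment was 6.66, 5.69 and 6.57 for the WT lists, against 6.05 and 4.24 in cKO 1 and cKO 2, with no call in cKO 3. The WT percentiles were 66.4, 44.04 and 54.6, and those of cKO 1 and cKO 2 were 47.6 and 24.03. The ranks thus overlapped, because WT 2 stood below cKO 1.

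The summit held 22 (95% Poisson interval 13.8 to 33.3), 18 (10.7 to 28.4) and 23 fragments (14.6 to 34.5) in WT 1, WT 2 and WT 3. It held 20 (12.2 to 30.9) in cKO 1 and 14 (7.65 to 23.5) in cKO 2. Relative to the coverage of the list this was 10.4, 9.89 and 11.4 times in WT and 8.73 and 8 times in the cKO lists with a call. On this scale, which was chosen after seeing the data, both called cKO values were below all 3 WT values, although the counting intervals overlapped widely. Among the 1600 regions called in 3 WT and 2 cKO lists whose pileups could be worked out, 1.75% had both cKO values below all WT values. Among the 360 regions that lacked a call in cKO 3 alone, it was 1.94%. The opposite pattern, both cKO values above all WT values, was found in 24.4% of the 1600. Of the 5072 regions called in 3 cKO and 2 WT lists, both WT values were below all cKO values in 10.2% and above them in 6.01%. These shares too were chosen after seeing the data. No test was made of this, since 1 list had no value and the gene was singled out after its values were seen.

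Other peaks at Itln1 were weak and not shared by all lists. A region 21.4 kb downstream of the TSS, beyond the gene end, was called in cKO 1 and cKO 3 at percentiles of 28.0 and 35.5. A region 19.6 kb downstream, in the unprocessed pseudogene Gm9765, was called in WT 1 and cKO 3 at 22.6 and 15.4. A peak 5.16 kb upstream was called in cKO 1 alone. Over the gene and its flanks Itln1 had 2, 1 and 1 peaks for the WT lists and 3, 1 and 2 for the cKO lists (exact permutation test, two-sided, p = 0.7).

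Mmp7 (ENSMUSG00000018623.9, chr9:7692090-7699585, plus strand) had no promoter peak, but a peak lay upstream in every list. In 5 lists it fell in the region chr9:7689428-7690147, with the summit 2.49 and 2.37 kb upstream in WT 2 and WT 3 and 2.38, 2.31 and 2.35 kb upstream in cKO 1, 2 and 3. In WT 1 the only nearby peak had its summit 2.81 kb upstream and did not touch that region. The annotation places these summits in the processed pseudogene Gm19212, within an intron of the antisense transcript AV064505, and every 50-base sequence of both regions was unique. The percentiles were 40 and 40.4 in WT 2 and WT 3 and 57.1, 12.3 and 60.2 in the cKO lists, and the WT 1 peak stood at 7.69. The cKO lists bracketed the WT lists, with cKO 2 far below both and the others above. The summits held 16 and 15 fragments in WT 2 and WT 3 and 24, 9 and 22 in cKO 1, 2 and 3. A further peak 9.8 kb upstream, just inside the 10 kb limit, was called in WT 3 and cKO 3.

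Pla2g2a (ENSMUSG00000058908.14, chr4:138831857-138835186, plus strand), which the annotation lists as a polymorphic pseudogene, had no promoter peak either, yet the only 2 regions called in all 6 lists lay at this gene. They were among 12 regions in the windows of the 8 genes, whereas 45.9% of all 71286 merged regions were called in all 6 lists. The regions were chr4:138825770-138826548, 5.7 kb upstream, and chr4:138827187-138828462, 4.2 kb upstream. Both lie in an intron of the neighbouring phospholipase gene Pla2g5, which runs across the locus on the minus strand. In each list the summit of the second region lay 57 to 166 bp from the nearest annotated start, that of Gm25280. The 121 bases around the median summit of the second held none of the letters searched and read, on the plus strand of chr4:138827577-138827697:
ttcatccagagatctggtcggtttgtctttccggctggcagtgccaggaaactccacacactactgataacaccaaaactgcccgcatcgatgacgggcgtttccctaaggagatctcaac

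At 5.7 kb the WT percentiles were 48.8, 38.7 and 18.1, and the cKO percentiles were 34.7, 30.7 and 34.1, in sample order. WT 3 was the lowest and WT 1 the highest, so the groups overlapped. A percentile also depends on the other peaks of its list. The fold was 5.17 in WT 1 and 5.30 in WT 2, although WT 1 had the higher percentile. The median fold of all peaks was 5.26 in WT 1, against 5.89 to 6.24 in the other lists. At 4.2 kb the percentiles were 45.5, 40.2 and 46.0 in WT and 41.2, 31.3 and 38.2 in cKO, where only cKO 1 reached into the WT range. The percentiles thus overlapped at 2 of 2 regions, while over all regions called in every list they were separate with cKO higher in 4.66% and with cKO lower in 7.04%. The mean was 35.2 ± 15.6 in WT and 33.1 ± 2.16 in cKO at the first region and 43.9 ± 3.23 and 36.9 ± 5.07 at the second (SD, n = 3, exact permutation test, two-sided, p = 0.8 and p = 0.2). Ranks were turned into normal scores, in units of the standard deviation, and fitted with limma over 32748 regions called in all 6 lists. The cKO minus WT difference was −0.027 ± 0.242 (SE; 95% interval −0.57 to 0.51; adjusted p = 0.982) and −0.183 ± 0.184 (−0.59 to 0.23; adjusted p = 0.816). Neither passed the threshold of 0.05 with Benjamini-Hochberg adjustment, and neither had an unadjusted p under 0.05. At the first region the sign changed when WT 1 was left out (0.16) and when peaks were ranked by −log10 q (0.07). Over all regions limma called 0% higher and 0% lower in cKO, with 1964 at an unadjusted p under 0.05, and the intervals show what differences the fit leaves possible.

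The number of fragments gave another order than the rank at Pla2g2a. At 5.7 kb the summit held 35, 36 and 33 fragments in WT against 58, 25 and 59 in cKO. At 4.2 kb the WT lists had 35, 38 and 49 and the cKO lists 64, 26 and 64. The local background at 5.7 kb stood at 5.96, 5.98 and 7.66 fragments for the WT lists and at 10.7, 4.65 and 11.2 for the cKO lists, above the coverage of every list. The background was highest in cKO 3 and lowest in cKO 2, as was the pileup. Pileup over coverage averaged 17.6 ± 1.89 in WT and 22.2 ± 6.93 in cKO at 5.7 kb (SD, n = 3, exact permutation test, two-sided, p = 0.4) and 20.6 ± 3.90 and 24.1 ± 7.996 at 4.2 kb (exact permutation p = 0.6). In both regions cKO 2 was the lowest list and cKO 1 and cKO 3 the highest, so the cKO samples spread around the WT samples. Downstream, a merged region with its median summit 3.9 kb from the TSS was called in every list but WT 1. It joined 2 summit positions. In WT 2, cKO 2 and cKO 3 the summits lay at 3.86, 3.8 and 3.86 kb, with percentiles of 3.73, 18.1 and 14.0. In WT 3 and cKO 1 they lay at 4.68 and 4.69 kb, with percentiles of 32.4 and 46.3. The WT 2 and WT 3 peaks did not overlap, so these ranks are not all of the same site.

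**Figure D3:**
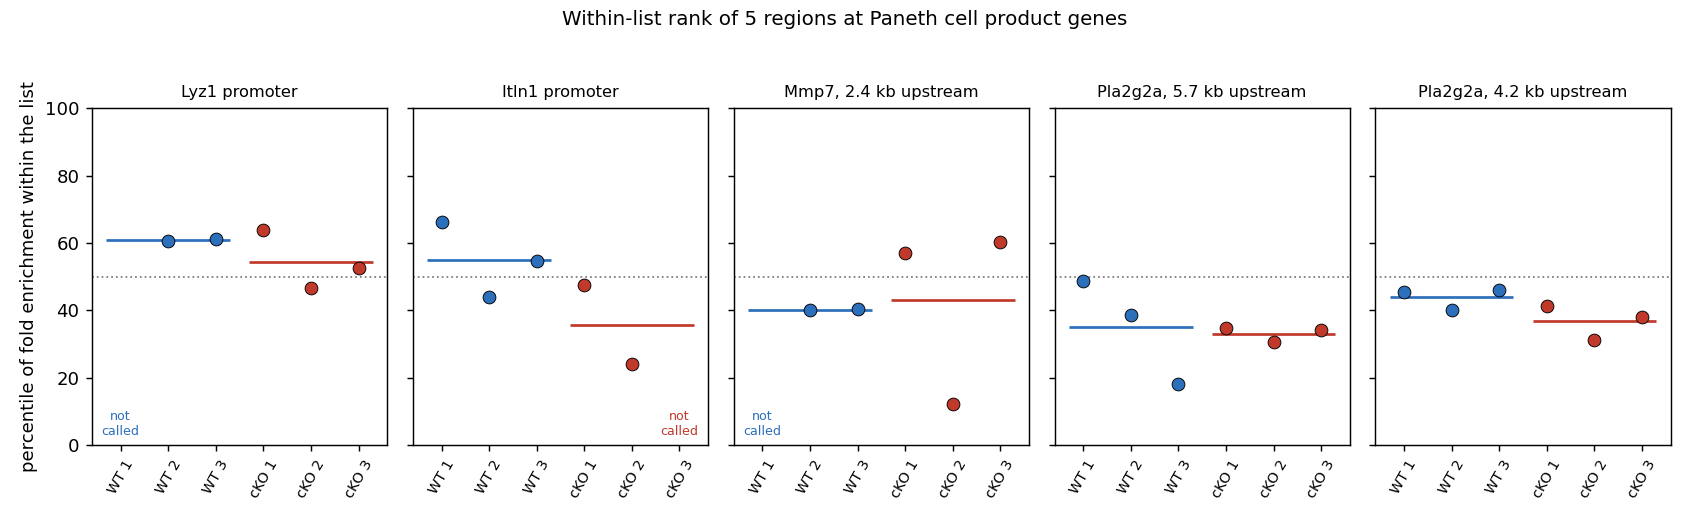
Percentile of fold enrichment within each list (y axis) for 5 regions, 1 point per list (WT blue, cKO red), with the mean of the called lists as a line and the list median dotted. Called WT and cKO values overlap or bracket each other in each of the 5 regions, and both Pla2g2a regions stay below the list median in all 6 lists.

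Ang4, Mptx1 and Mptx2 had no peak within 10 kb in any list. Together with Lyz2 this made 4 of 8 product genes, against 21.9% of protein-coding genes and 30.6% of those of at most 20 kb. Ang4 (ENSMUSG00000060615.5, chr14:51763878-51773590, minus strand) lay 104 to 111 kb from the nearest summit. Mptx2 (ENSMUSG00000079180.4, chr1:173274382-173277777, minus strand) lay 133 to 141 kb from one. At Mptx1 (ENSMUSG00000026531.4, chr1:174330518-174332873, plus strand) the nearest summit was 27.1 to 27.2 kb away. At least 93.8% of the 50-base sequences in these 3 promoter windows were unique. Openness below the 8 or 9 fragments of the weakest peaks was not detectable at this depth, so the genotypes could not be compared at these genes.

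Over all 8 genes the WT lists held 5, 6 and 7 peaks and the cKO lists 9, 6 and 8. The mean was 6 ± 1 in WT and 7.67 ± 1.53 in cKO (SD, n = 3). The shortest list, WT 1, held the fewest and the longest, cKO 1, the most. Between them the counts rose with length or stayed equal, except that cKO 3 held 8 against 7 in the longer WT 3. Of the single genes, none had counts that were higher in all cKO than in all WT samples, as 0.666% of protein-coding genes did, or lower in all, as 0.296% did.

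Other Paneth genes give the context. Of 23 other Paneth genes and regulators, 11 had a promoter peak in all 6 lists, 6 in some and 6 in none. The alpha-defensin genes Defa17, Defa22, Defa24 and Defa30 and the secretory factors Atoh1 and Spdef had none by summit. With any base of a peak counted in place of the summit, Atoh1 was called in 6 lists and Spdef in 1, and the 4 defensin genes stayed at 0. Those called in some lists were Reg3g in 5, Sox9 and Habp2 in 4, Reg3b and Gfi1 in 2 and Clps in 1. By any base these were 5 for Reg3g, 6 for Sox9, 4 for Habp2, 2 for Reg3b, 5 for Gfi1 and 2 for Clps. In all, 13 of the 23 were then called in all 6 lists, and the share of protein-coding genes was 58.6% while the product genes stayed at 0. By that count 6 of the 8 product genes were called in no list, against 33.9% of protein-coding genes. By percentile over the 6 lists, with a missing call set to 0, the promoters closest to that of Lyz1 among 21937 genes were Rhd, Zp2 and Scgb1c1, at Euclidean distances of 9.73, 10.3 and 13.8 percentile points.

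Promoter sequences were compared last. The RefSeq table held 7 of the 8 genes (300 bases, from 250 before to 50 after the start), Pla2g2a being the other. All 7 were poor in CpG, the dinucleotide that marks promoters open in most tissues, with 0 at Itln1 and Mptx1, 1 at Lyz2 and Mmp7, 2 at Lyz1 and Mptx2 and 5 at Ang4, against a median of 14 over 16538 promoters. Calls over all genes rose with CpG. Of promoters with 0 or 1 CpG, 4.86% were called in all 6 lists and 9.62% in at least 1, and of those with 2 to 5, 15.1% and 27.9%. With 16 or more these shares were 72.6% and 91.5%. Of the product genes, 1 of 4 in the lowest class and 1 of 3 in the next was called in at least 1 list.

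**Figure D4:**
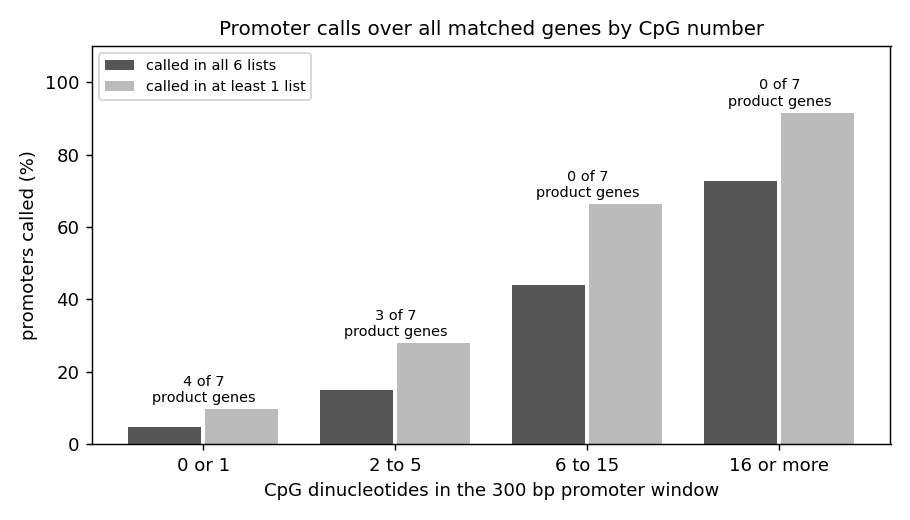
Share of promoters (y axis, percent) called in all 6 lists and in at least 1 list, by the number of CpG dinucleotides in 300 bp (x axis), over all matched genes. The number of Paneth cell product genes in each class stands above the bars, and all 7 fall in the 2 lowest classes, where 4.86% and 15.1% of promoters were called in all 6 lists.

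Short motifs were searched on both strands. TATAAA stood for TATA, and TTTATNG for CDX, the family of intestinal homeobox factors. The search for GATA factors used AGATAA, and that for the Wnt effector TCF used CTTTGA or, in a longer form, TTCAAAG. For AP-1 the letters were TGACTCA, with the reverse TGAGTCA. For HNF4, a factor of enterocytes, they were CAAAGTCCA and, as a variant, CAAAGTTCA. ATCAAA was searched for ARID3, the family of the deleted gene, and so was ATTAAA. SOX letters were ACAATG and, as a variant, ACAATA. Lyz1 held ATCAAA at 2 places, beginning at positions −152 and −80 from the start, and Lyz2 held no match to any of the 8 motifs. Since all 7 product promoters hold 5 CpG or fewer, the share among promoters of that kind is given beside the share of all promoters, and it is larger for each motif. ARID3 letters were in 2 of 7 product promoters, Lyz1 and Mmp7, against 35.2% of promoters low in CpG and 19.7% of all. SOX letters were in 4 of 7, against 31.8% and 16.8%. CDX letters were in 3 of 7, against 17.6% and 10.03%, and AP-1 letters in 2 of 7, Mmp7 and Ang4, against 7.60% and 4.53%. TATA, GATA and TCF letters were each in 2 of 7, Mmp7 and Mptx1, against 26.7%, 18.2% and 21.9% of promoters low in CpG and 12.9%, 9.70% and 14.7% of all. No HNF4 letters were found in the 7 windows, against 1.47% and 0.84%. With 7 promoters these counts are a description. Some matches share bases: the TCF and ARID3 letters of Mmp7 and the CDX and SOX letters of Mptx2 overlap.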

How the data were processed

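ATAC-seq of 3 WT and 3 cKO crypt samples was processed by the authors with nf-core/atacseq (Trim Galore, BWA, GRCm38 of Ensembl release 95, blacklist, MACS narrow peaks per sample). Per the labels, MACS2 and bedtools were used. The fold, the −log10 p, the −log10 q and the score (a rescaled −log10 q) of each peak were deposited by the authors. Fold is the ratio of summit coverage to local background, with a constant added to each. Read counts were not used here. The product genes and gene lists were chosen with earlier results of these data known.

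The autosomes, X and Y were analysed, and 61 to 92 peaks per list were left out. The largest peak end lay within the reference length for all 21 chromosomes. Genes came from GENCODE M21 on GRCm38, and coordinates are 1-based. Lists were merged where they shared at least 1 base. All 8 genes are named by rule, other genes only where no call was made in some list, and 3 genes by nearest percentiles. Percentiles are ranks of fold within a list. Their normal scores were fitted with limma 3.58.1 (R 4.3.3), tested on simulated data, and p-values were adjusted over all regions. Single values were tested by exact permutation over samples, with 0.1 as the smallest p. If samples were not separate animals, p-values cover only the spread between these samples. The whole number of fragments at a summit that satisfies both fold and the Poisson p was solved for each peak, and was found for 99.8% to 100% of peaks with −log10 p under 20. Coverage is the commonest background so implied. Total reads were not used. Intervals cover counting error only. Scripts used Python 3.11.15, scipy 1.17.1, numba 0.67.0 and Biopython 1.88.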

Additional observations from a re-analysis of the deposited data

How the results depend on the processing

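The alternatives were planned, except pileup over coverage, which was chosen after seeing the data. Of 73 recomputed values, 59 kept their direction and side of the threshold, or stayed within 1.5 times or 1 SD. Of the 59, 13 were counts of product gene regions past the adjusted threshold. Those were 0 throughout, as limma called 0 of all regions in every fit, so they tell nothing particular to these genes. The number of product genes with a promoter peak in all lists ran from 0 to 1 when one sample was left out, as Lyz1 was called in all lists without WT 1 and Itln1 without cKO 3. The regions called in all lists numbered 2 to 5 when one sample was left out, the highest without WT 1, and were 1 within 5 kb of the gene body and 0 in the gene body alone, where fewer peaks qualify. They numbered 3 when lists were merged on windows of 250 bp either side of each summit in place of whole peaks. With lists of equal length the difference in peak number turned from 1.67 to −0.333 peaks per list. With −log10 q of at least 5 it was 0.333. Whether list length or the strength of the peaks lay behind the difference was not tested.

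The small difference at 5.7 kb upstream of Pla2g2a changed sign with −log10 q of at least 5 (0.0266), ranking by −log10 q (0.0667), log2 fold (0.0255) and pileup over coverage (4.63 times coverage), and ran from −0.278 to 0.163 when one sample was left out, with the sign changed without WT 1, WT 2 or cKO 2. At 4.2 kb it changed sign with pileup over coverage (3.44 times coverage). The cause was not tested. Adjusted p from limma ran from 0.729 to 1.00 at 5.7 kb and from 0.676 to 1.00 at 4.2 kb over the other fits. With the replicate number as a block the differences were −0.0268 and −0.183 (limma, adjusted p = 0.987 and 0.898). Deviations of same-numbered samples correlated at −0.272, −0.0186 and 0.125, and only cKO 3 correlated best with its own number. The numbers were therefore not taken to pair samples. Peaks of under 8 or 9 fragments were not called, so a weak promoter could go without a call. WT 1, which lacked the Lyz1 call, had a coverage of 2.11, and cKO 3, which lacked the Itln1 call, had 2.18. WT 2 and cKO 2, at 1.82 and 1.75, held both calls. Why the calls were missing was not tested.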
